A study of Mus musculus with 10 samples.

Results

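The variable (V) genes of the T-cell receptor were examined in RNA-seq counts of CD4+ T cells from mouse spleen. All count rows whose symbol begins with Trav (alpha chain) or Trbv (beta chain) were taken, which gave 163 V symbols of 48321 symbols in all, 128 of them Trav and 35 Trbv. The 10 libraries came from C57BL/6 mice with a GFP reporter of *Foxp3*, either wild type (WT) or *Satb1* F/F:Thpok-cre (KO), which lose the chromatin organizer SATB1 after commitment to the CD4 lineage. The sort used GFP, taken here as FoxP3, together with CD25, the alpha chain of the IL-2 receptor. WT mice gave FoxP3+CD25+ cells, the usual regulatory T cells (Tregs), and FoxP3-CD25- cells, the non-Tregs. KO mice gave both of these and FoxP3+CD25- cells, with 2 libraries in each of the 5 groups. The methods give an age of 8 to 12 weeks and both sexes. The library titles carry the numbers 1 and 2 within each genotype, which were read here as mice.

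Each T cell assembles its receptor in the thymus by joining V, diversity (beta chain only) and joining segments, so a sorted population carries many V genes at once and the share of each describes its repertoire. The beta chain is assembled first from a compact set of V genes, while the mouse alpha locus carries large duplicated blocks whose members have a d (duplicated) or n (new) in the name. A few V genes mark unconventional T cells: *Trav11* and *Trav11d* make the alpha chain of invariant NKT cells, and *Trav1* that of mucosal-associated invariant T (MAIT) cells.

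The share of a V gene was its count as a percentage of all Trav or all Trbv counts of the library. Reads that aligned to several places were not counted, so genes with near-identical copies are seen only through the stretches that differ. The V exons below (GENCODE M21, build mm10/GRCm38, plus strand, 5′ to 3′) show how much or how little separates such genes. In the *Trbv12* pair, at chr6:41113775-41114067 and chr6:41119072-41119364, capitals mark the 32 of 293 bases at which the exons differ (89.1% identity); this pair is shown because its members gave different results below.
Trbv12-1: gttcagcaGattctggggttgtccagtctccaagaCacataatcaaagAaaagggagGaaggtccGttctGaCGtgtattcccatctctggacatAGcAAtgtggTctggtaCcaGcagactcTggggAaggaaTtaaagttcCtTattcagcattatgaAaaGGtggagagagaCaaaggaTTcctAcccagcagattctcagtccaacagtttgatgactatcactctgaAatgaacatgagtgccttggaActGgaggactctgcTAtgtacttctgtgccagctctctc
Trbv12-2: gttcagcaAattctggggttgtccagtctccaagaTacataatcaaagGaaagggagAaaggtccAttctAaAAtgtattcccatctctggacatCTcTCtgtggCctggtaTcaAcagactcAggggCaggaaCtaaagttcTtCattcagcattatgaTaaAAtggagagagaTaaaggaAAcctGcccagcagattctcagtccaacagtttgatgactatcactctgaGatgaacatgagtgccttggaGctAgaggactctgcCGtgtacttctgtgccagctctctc
The next pair is shown by the first 300 bases of its exons, at chr14:53370267-53370566 and chr14:53078737-53079036. The whole exons differ at 10 of 309 bases, all within the stretch shown and in capitals (96.8% identity); both members were among the 8 largest Trav shares.
Trav14n-3: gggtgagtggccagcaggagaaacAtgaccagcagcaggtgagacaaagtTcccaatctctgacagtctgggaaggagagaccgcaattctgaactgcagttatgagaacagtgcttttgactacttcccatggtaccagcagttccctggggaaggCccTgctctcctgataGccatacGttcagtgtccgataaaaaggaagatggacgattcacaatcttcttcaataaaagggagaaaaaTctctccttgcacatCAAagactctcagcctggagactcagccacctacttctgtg
Trav14d-3-dv8: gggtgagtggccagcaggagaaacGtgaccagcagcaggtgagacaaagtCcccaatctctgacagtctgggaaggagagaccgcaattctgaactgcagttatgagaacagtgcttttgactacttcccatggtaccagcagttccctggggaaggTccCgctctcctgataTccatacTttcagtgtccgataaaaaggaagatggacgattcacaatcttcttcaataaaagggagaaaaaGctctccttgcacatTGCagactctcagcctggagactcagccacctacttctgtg
The exons of the invariant NKT gene *Trav11* (chr14:53519569-53519859), of its copy *Trav11d* (chr14:52824623-52824912) and of *Trav11n* (chr14:53135388-53135678), annotated as a pseudogene, are shown because the first 2 had no count. *Trav11* and *Trav11d* are identical over the 290 bases they share, and capitals mark the 6 bases at which *Trav11n* differs and the last base, which the *Trav11d* exon lacks.
Trav11: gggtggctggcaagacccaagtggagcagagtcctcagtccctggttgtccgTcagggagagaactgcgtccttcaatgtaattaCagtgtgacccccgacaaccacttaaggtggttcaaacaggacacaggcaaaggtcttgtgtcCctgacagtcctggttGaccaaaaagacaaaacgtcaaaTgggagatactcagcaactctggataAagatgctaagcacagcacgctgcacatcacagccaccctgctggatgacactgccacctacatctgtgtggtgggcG
Trav11d: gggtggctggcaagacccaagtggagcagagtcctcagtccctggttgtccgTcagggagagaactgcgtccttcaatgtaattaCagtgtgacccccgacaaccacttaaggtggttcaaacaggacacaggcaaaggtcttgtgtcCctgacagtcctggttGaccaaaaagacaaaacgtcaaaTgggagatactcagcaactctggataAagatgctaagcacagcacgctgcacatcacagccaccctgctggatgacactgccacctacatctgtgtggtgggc
Trav11n: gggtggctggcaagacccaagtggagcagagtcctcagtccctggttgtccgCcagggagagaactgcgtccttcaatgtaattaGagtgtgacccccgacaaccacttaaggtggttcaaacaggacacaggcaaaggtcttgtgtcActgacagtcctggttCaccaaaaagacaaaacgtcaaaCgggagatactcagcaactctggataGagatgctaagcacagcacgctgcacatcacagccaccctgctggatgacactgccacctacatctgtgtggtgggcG

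How far a gene could be counted was measured by cutting its longest transcript into windows of 50 bases, the read length. A window was unique if it occurred in no other gene of the annotation. Of the 108 functional Trav genes, 38 had no such window, and 34 of these had 0 counts in all 10 libraries. The 4 others, *Trav13n-3*, *Trav14n-1*, *Trav7n-6* and *Trav9n-3*, held 26, 2, 2 and 1 counts. Among the 29 genes with 1% to 49% unique windows 3 had no count, and all 41 genes with more were counted, with at least 66 counts each for the 33 genes at 50% to 99% and 8 or more for the 8 genes with only unique windows. The d copies had no unique window in 18 of 34 functional genes and the n copies in 17 of 28, compared with 3 of 46 genes with neither letter. All 22 functional Trbv genes were counted, and 17 of them had only unique windows. The lowest values were 27.9% for *Trbv4* and 22.6% for *Trbv5*, which share sequence with the overlapping gene *5830405F06Rik*. In total 71 of 108 functional Trav genes and 22 of 22 functional Trbv genes had a count. Of the symbols annotated as pseudogenes, 11 of 20 Trav and 5 of 13 Trbv had one, and they took 1.26% and 0.355% of the counts of their loci. These windows describe transcripts, and the uniqueness of the introns and flanks was not tested.

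**Figure D1:**
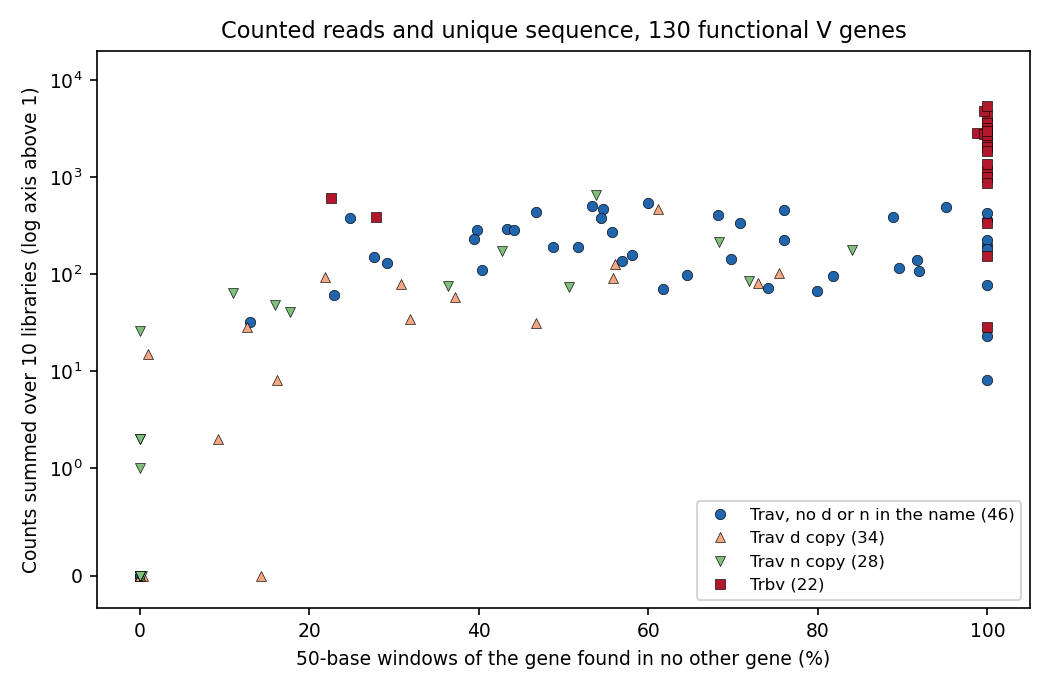
Counts summed over the 10 libraries (vertical axis, log scale above 1) against the percentage of 50-base windows found in no other gene (horizontal axis) for 130 functional V genes, with Trav d copies, n copies, other Trav genes and Trbv genes in separate symbols. The 38 Trav genes at 0% unique windows lie at or near 0 counts, and all Trbv genes have counts.

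The libraries held 6094952 to 12410064 reads on genes, of which 3559 to 7130 were Trbv and 903 to 2234 Trav counts. A share of 0 therefore allows up to 0.0421% to 0.0843% of Trbv counts and 0.134% to 0.332% of Trav counts (3 counts of the total), and these limits, like the Wilson intervals below, cover counting error only. *Foxp3* was at 614 to 736 CPM (counts scaled to the reads on genes of the library) in the 4 FoxP3+CD25+ libraries, 322 to 354 in KO FoxP3+CD25- cells and 18.1 to 38.6 in FoxP3-CD25- cells, and *Il2ra*, which encodes CD25, at 625 to 755, 16.5 to 17.0 and 1.56 to 11.3. The CD4 T-cell markers were present in all libraries. In edgeR *Cd4* and *Thy1* were called lower in Tregs than in non-Tregs in both genotypes, beside 3.75% (WT) and 2.81% (KO) of all genes. *Cd4* was also called lower in KO FoxP3+CD25- than in KO FoxP3-CD25- cells, beside 1.67% of all genes called. The 3 NK markers summed to 12.3 to 25.0 CPM in the 4 FoxP3-CD25- libraries and 2.44 to 7.61 in the 6 others, with *Ncr1* at or under 0.304 and *Eomes* called lower in WT Tregs (-2.81, adjusted p = 0.00489, edgeR) and in KO FoxP3+CD25- cells (-2.66, adjusted p = 0.0432), each against non-Tregs. The 5 myeloid markers summed to 14.2 to 21.4 CPM, most of it from *Csf1r* at 12.3 to 17.3. *Lyz2* was at or under 1.52, *Adgre1* at or under 0.608 and *Cd14* at or under 0.152. *Itgam* was at 1.47 to 6.23 CPM and called lower in KO Tregs than in KO non-Tregs (-1.75, adjusted p = 0.0207, edgeR). For CD8 T cells, *Cd8b1* was at 8.07 to 14.3 CPM and *Cd8a* at 0.134 to 4.03. Of the B-cell markers reported here, *Cd79b* was higher in the 4 FoxP3+CD25+ libraries (14.6 to 18.7 CPM) than in the 6 others (0.83 to 5.09), while *Cd79a* was at 0.83 to 2.93, *Ebf1* at or under 1.06 and *Ms4a1* at or under 0.76. The part of cells with these markers in the V shares was not tested. Gene counts of *Satb1* were not called lower in the libraries labelled KO: 595 and 544 CPM in KO against 373 and 475 in WT Tregs, with 834 and 700 in KO against 795 and 886 in WT non-Tregs (log2 fold change of KO to WT 0.40 and -0.16, adjusted p of 1 and 0.927 in edgeR). In KO FoxP3+CD25- cells *Satb1* was at 1161 and 1007 CPM, called higher than in KO Tregs (log2 fold change 0.95). These counts are not resolved by exon, so KO below names the label. Both libraries of WT replicate 1 carried *Xist* (1318 and 1822 CPM) and no counts of *Ddx3y*, *Eif2s3y*, *Kdm5d* and *Uty*, unlike the 8 others (*Xist* at most 0.656 CPM), so each call below is also given where it changed without them.

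A small set of Trbv genes carried most of the beta-chain counts. In order of mean share over the 10 libraries these were *Trbv3*, *Trbv13-2*, *Trbv1*, *Trbv16*, *Trbv2*, *Trbv31*, *Trbv12-2* and *Trbv13-3*, and together they held 61.1% to 64.8% of the Trbv counts. *Trbv3* had a share of 6.75% to 15.0% (median 11.6%), *Trbv13-2* of 8.61% to 11.6% (median 10.3%) and *Trbv1* of 7.14% to 11.5% (median 8.99%). Per length of transcript the order of the leaders changed, with *Trbv13-2* at 11.8% ahead of *Trbv3* at 9.91% of the length-scaled counts. The effective number of genes, the exponential of the Shannon entropy of the shares, was 16.3 to 17.1 for Trbv, close to the 22 functional genes. By chromosome position, the 8 functional genes nearest the start of the locus (*Trbv1* to *Trbv12-2*) held 45.2% to 45.7% in the 4 FoxP3+CD25+ libraries and 41.2% to 43.4% in the 6 others. This set holds *Trbv3* and *Trbv12-1*, whose shares were higher in all 4 FoxP3+CD25+ libraries than in the 6 others. It also holds *Trbv1*, whose share was lower in all 4, and a part of position as such was not tested.

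**Figure D2:**
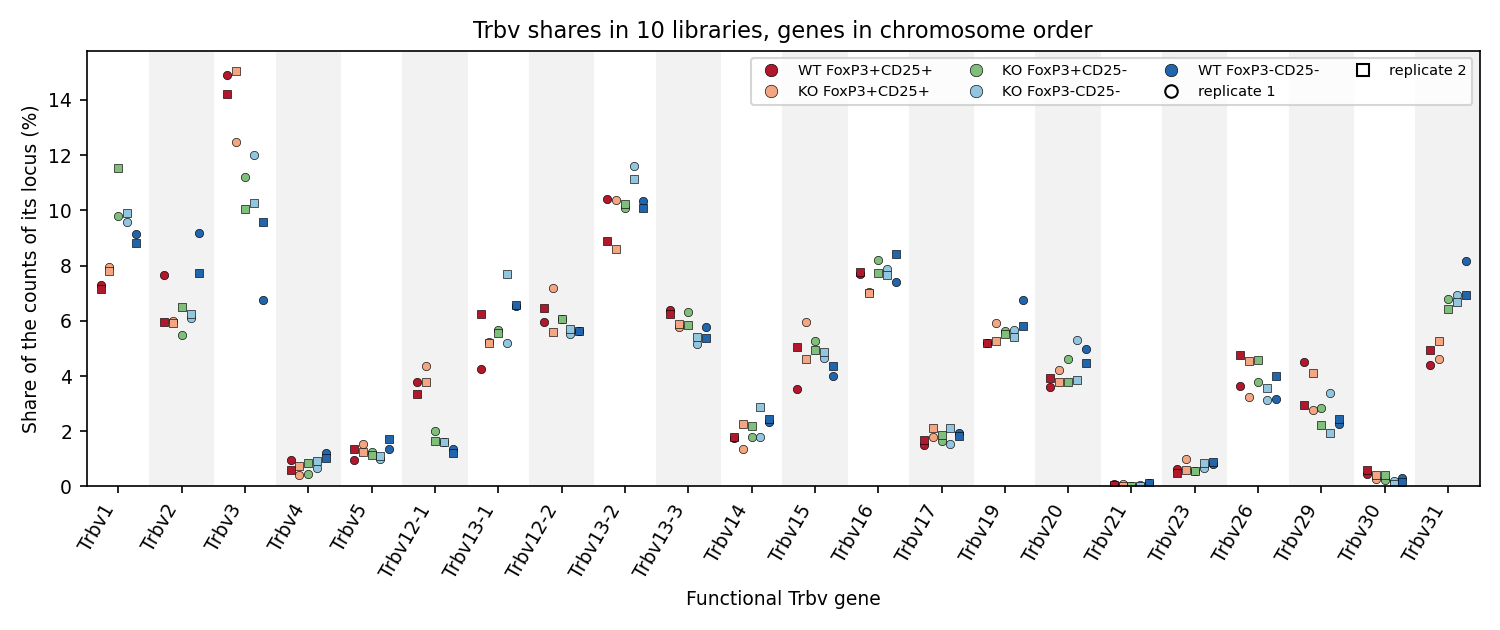
Share of all Trbv counts (vertical axis, percent) of the 22 functional Trbv genes in chromosome order in each of the 10 libraries; colour gives the sorted group and symbol the replicate number. Trbv3 is between 6.75% and 15.0%, and Trbv12-1 is at 3.33% to 4.37% in the 4 FoxP3+CD25+ libraries and at 1.21% to 1.99% in the 6 others.

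The alpha-chain counts were spread over more genes. *Trav14n-3*, *Trav3-3*, *Trav14-1*, *Trav9-2*, *Trav4-3*, *Trav13-1*, *Trav14d-3-dv8* and *Trav4-4-dv10* had the largest mean shares and held 26.9% to 33.3% of Trav counts together. *Trav14n-3* led with 3.54% to 6.08% (median 5.01%), and 35 genes had a mean share of at least 1%, compared with 18 Trbv genes. The effective number was 45.7 to 52.2 in single libraries. Group means (± SD, n = 2) ran from 46.3 ± 0.844 for KO FoxP3+CD25- to 50.4 ± 0.191 for KO non-Tregs, with 48.2 ± 1.36 for WT Tregs, 49.7 ± 3.52 for KO Tregs and 48.0 ± 1.51 for WT non-Tregs. With 2 libraries a group, an exact permutation test of such a value cannot go below p = 0.333, so no order of the groups was tested. The 36 functional Trav genes nearest the joining segments held 63.2% to 72.3% of the counts, and 34 of these genes had a count, compared with 17 and 20 in the equally large sets further away, where the d and n blocks lie. The genes shared with the delta chain, marked -dv, held 12% to 16.2%.

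**Figure D3:**
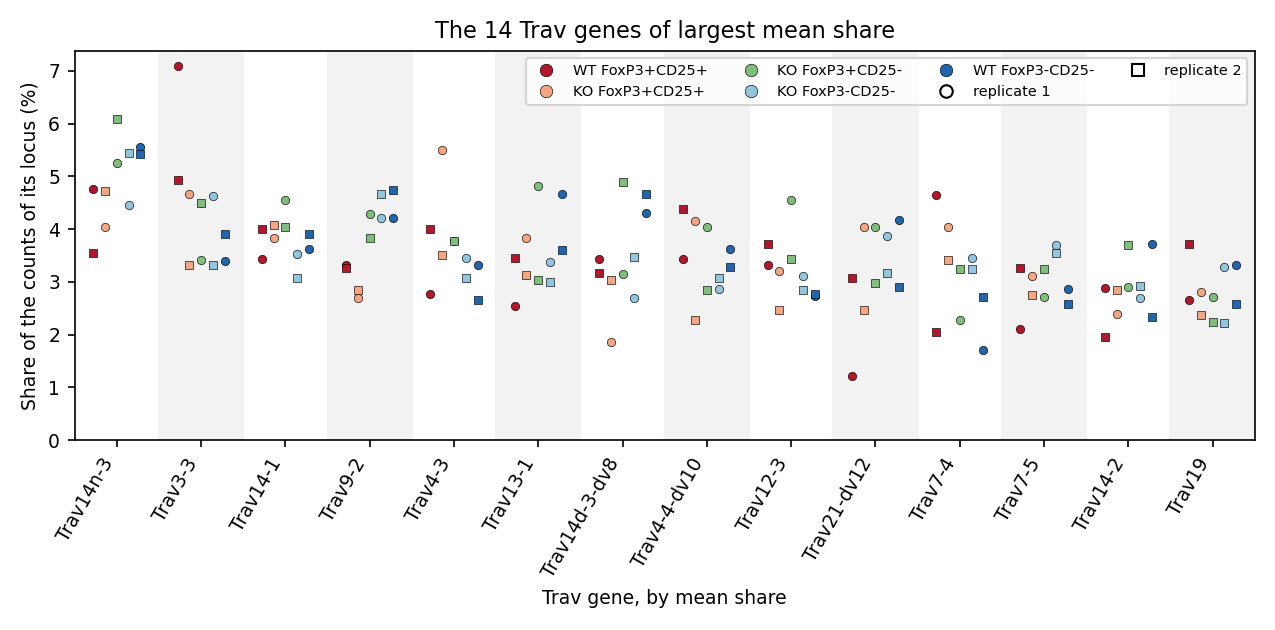
Share of all Trav counts (vertical axis, percent) of the 14 Trav genes of largest mean share in each of the 10 libraries; colour gives the sorted group and symbol the replicate number. Replicates of a group often lie apart by a percentage point or more, as for Trav3-3 in WT FoxP3+CD25+ cells (7.09% and 4.93%), and Trav9-2 is lower in all 4 FoxP3+CD25+ libraries (2.69% to 3.32%) than in the 6 others (3.83% to 4.73%).

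*Trbv12-1* had the lowest p of the V genes between Tregs and non-Tregs in both genotypes. It held 3.77% (134 counts, 95% Wilson interval 3.19% to 4.44%) and 3.33% (180 counts) of Trbv counts in the pair of WT FoxP3+CD25+ libraries and 4.37% (185 counts) and 3.79% (193 counts) in KO. Its share was 1.37% (98 counts, interval 1.13% to 1.67%) and 1.21% (59 counts) in WT non-Tregs. KO non-Tregs had 1.61% and 1.63%, and the KO FoxP3+CD25- libraries 1.99% and 1.66%. All 4 FoxP3+CD25+ libraries lay above all 6 others, whichever the genotype. Within each mouse the share was 2.74 and 2.75 times as high in Tregs as in non-Tregs in WT, and 2.71 and 2.33 times in KO. *Trbv12-2*, the neighbour printed above, did not follow: its shares were 5.96% and 6.46% in WT Tregs, 7.17% and 5.61% in KO Tregs and 5.52% to 6.06% in the 6 other libraries. The ratio of *Trbv12-1* to *Trbv12-2* counts was thus 0.516 to 0.675 in the 4 FoxP3+CD25+ libraries and 0.215 to 0.329 elsewhere. All 50-base windows of *Trbv12-1* and 98.8% of those of *Trbv12-2* were unique.

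**Figure D4:**
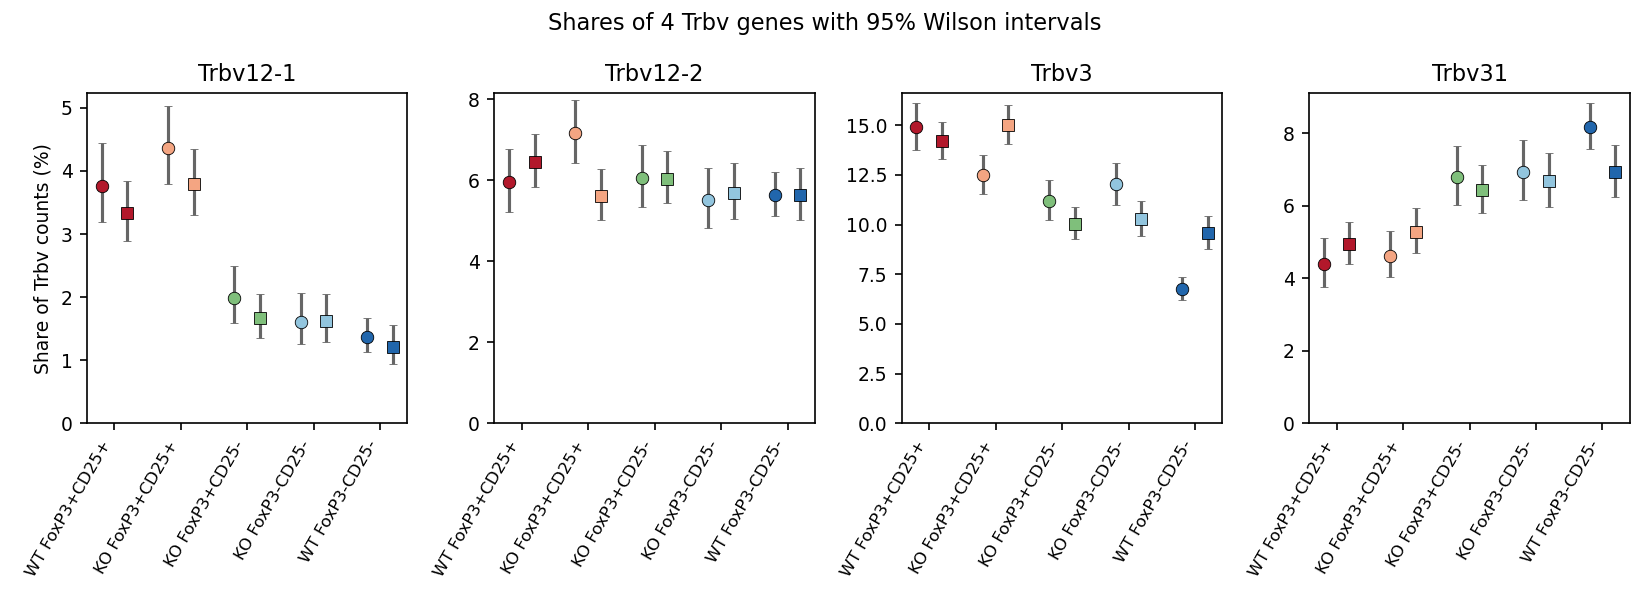
Share of all Trbv counts (vertical axis, percent, each panel from 0) of Trbv12-1, Trbv12-2, Trbv3 and Trbv31 in the 10 libraries by group, with 95% Wilson intervals (counting error only); circles are replicate 1 and squares replicate 2. Trbv12-1 and Trbv3 are higher and Trbv31 lower in the 4 FoxP3+CD25+ libraries than in the 6 others, while Trbv12-2 overlaps.

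In the comparison of WT FoxP3+CD25+ with WT FoxP3-CD25- cells, 5 of the 71 V genes that passed the filter on low counts changed at an adjusted p under 0.05 (edgeR quasi-likelihood test, Benjamini-Hochberg over all 13796 genes tested), beside 10.9% of all genes. Of these, 2 rose and 3 fell, beside 7.15% of all genes higher and 3.75% lower. *Trbv12-1* rose by 1.42 on the log2 scale (SE 0.21, adjusted p = 0.00125, edgeR), from 8.12 and 6.09 CPM in non-Tregs to 17.1 and 21.3 in Tregs, where the CPM of single V genes are scaled by TMM factors. *Trbv3*, the largest beta-chain gene, rose by 0.85 (SE 0.18, adjusted p = 0.00973), with shares of 14.9% and 14.2% in Tregs and 6.75% and 9.56% in non-Tregs. The adjusted p of *Trbv3* was 0.112 without WT FoxP3-CD25- replicate 1 alone and 0.047 without both libraries of WT replicate 1 in the edgeR test. *Trbv31*, the V gene that lies beyond the constant region in inverted orientation, had shares of 4.38% and 4.94% in Tregs and 8.18% and 6.93% in non-Tregs, a log2 fold change of -0.69 (SE 0.22) whose adjusted p of 0.0705 missed the threshold in edgeR. With the mouse as a block 8 V genes were called, *Trbv31*, *Trav10* and *Trav13-1* in addition. Leaving out WT FoxP3-CD25- replicate 1 or 2 left 1 and 2 calls, leaving out WT FoxP3+CD25+ replicate 1 left 3, and without both libraries of WT replicate 1 *Trbv12-1* and *Trbv3* were called.

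The remaining 3 calls in WT were Trav genes, all lower in Tregs, where the Trav counts as a whole were lower too. *Trav14n-3* was at 5.50 and 4.49 CPM in Tregs and 10.3 and 8.87 in non-Tregs and fell by 0.94 on the log2 scale (SE 0.22, adjusted p = 0.0195, edgeR). *Trav9-2* fell by 0.96 (SE 0.24, adjusted p = 0.0263) and *Trav14d-3-dv8* fell by 0.96 (SE 0.27, adjusted p = 0.0461). All Trav counts together were 114 and 126 CPM in WT Tregs and 180 and 164 in WT non-Tregs, and 147 and 141 in KO Tregs and 195 and 171 in KO non-Tregs. The alpha constant gene *Trac* was also lower in WT Tregs (466 and 501 CPM) than in WT non-Tregs (727 and 634), a log2 fold change of -0.50 (SE 0.12, adjusted p = 0.0193, edgeR). In KO, *Trac* was at 585 and 579 CPM in Tregs, 732 and 705 in non-Tregs and 707 and 659 in FoxP3+CD25- cells. The KO change between Tregs and non-Tregs was not called. The median change of the 49 tested Trav genes in WT was -0.53, compared with -0.17 for the 22 Trbv genes and -0.02 for all genes. When the total of the locus was the library size, so that the change is one of the share, the median Trav change was -0.01 and none of the 3 Trav genes passed. On that scale their changes were -0.42 (SE 0.29) for *Trav14n-3*, -0.43 (SE 0.29) for *Trav9-2* and -0.44 (SE 0.33) for *Trav14d-3-dv8*, with adjusted p of 0.231 to 0.288 in edgeR. *Trbv12-1* (1.44, adjusted p = 0.00104) and *Trbv3* (0.84, adjusted p = 0.0194) still passed on that scale in edgeR, and *Trbv31* passed there too (-0.69, adjusted p = 0.0498). Fewer cells of a kind and less RNA per cell cannot be told apart in these bulk samples.

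In KO mice the same comparison gave 2 calls among the 71 V genes, beside 6.34% of all genes, 1 higher (3.52% of all genes) and 1 lower (2.81%). *Trbv12-1* rose by 1.47 (SE 0.21, adjusted p = 0.00209, edgeR), from 9.76 and 9.49 CPM in KO FoxP3-CD25- cells to 28.2 and 25.3 in KO FoxP3+CD25+ cells. *Trav9-2* fell by 1.02 (SE 0.26, adjusted p = 0.0437), from 8.27 and 7.77 CPM to 3.97 and 3.93, but was called in 4 of 16 alternatives only. Its share was 2.69% and 2.84% in KO Tregs and 4.21% and 4.66% in KO non-Tregs, and its adjusted p on the share scale was 0.164. *Trbv3* had a log2 fold change of 0.45 (SE 0.18, adjusted p = 0.216), with shares of 12.5% and 15.0% in KO Tregs and 12% and 10.3% in KO non-Tregs. *Trbv31* had shares of 4.62% and 5.28% in KO Tregs and 6.94% and 6.67% in KO non-Tregs, with a log2 fold change of -0.31 (SE 0.22, adjusted p = 0.604).

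The changes in WT and KO, which share no library, were set side by side across genes. Over the 22 Trbv genes Pearson's r of the 2 sets of log2 fold changes was 0.87, and 16 had the same sign. Over the 49 Trav genes r was 0.36, and 37 had the same sign, 31 on the share scale, where a locus-wide shift no longer counts. Genes of a locus share the library and its depth and are not replicates, so these values are descriptions. The difference between the KO and WT changes was tested itself, and 0 of 71 V genes passed, beside 0% of all genes, with 0 V genes at an unadjusted p under 0.05 in edgeR (beside 4.97% of all genes) and 0 called by DESeq2. For *Trbv12-1* the KO change exceeded the WT change by 0.05 (SE 0.30) on the log2 scale, and for *Trbv3* the difference was -0.40 (SE 0.25). The lowest unadjusted p belonged to *Trbv5* (0.84, SE 0.43), *Trbv2* (0.45, SE 0.23) and *Trbv23* (0.84, SE 0.45), each with an adjusted p of 1 in edgeR.

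**Figure D5:**
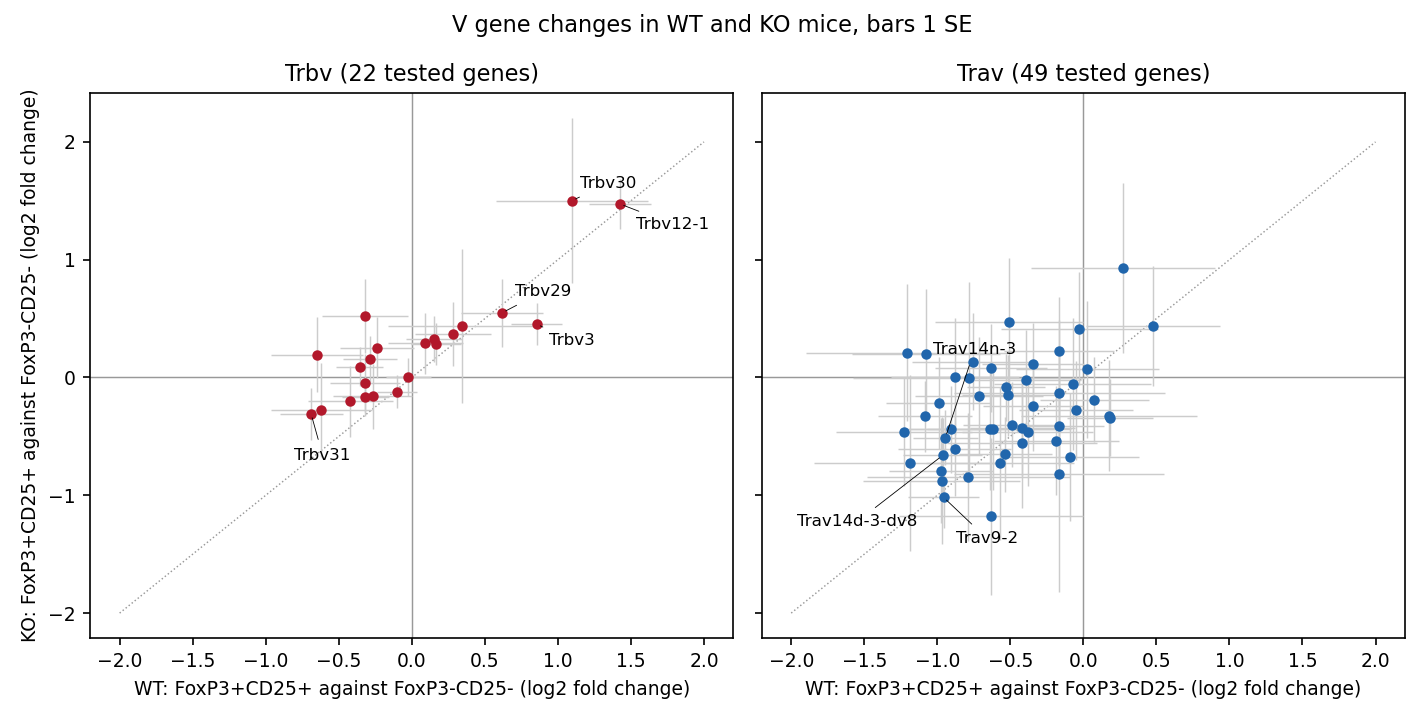
Log2 fold change of FoxP3+CD25+ against FoxP3-CD25- cells in KO mice (vertical axis) against that in WT mice (horizontal axis) for the 22 tested Trbv and 49 tested Trav genes, with bars of 1 SE and a dotted line of equal change. Trbv12-1 lies near the dotted line at 1.42 and 1.47, Trbv30 (1.10 and 1.5, neither called) has wide bars, and most Trav genes lie below 0 on both axes.

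On the share scale, 4 of the 27 Trbv symbols with a count had FoxP3+CD25+ libraries that did not overlap the 6 others (14.8%), and 2 of 82 Trav symbols did (2.44%). These were *Trbv12-1* and *Trbv3*, higher, and *Trbv1* and *Trbv31*, lower, with *Trav9-2* lower and *Trav10d* higher, the latter on 8 counts in all. *Trbv1*, at the start of the locus, had shares of 7.31% and 7.14% in WT Tregs, 7.95% and 7.79% in KO Tregs and 8.82% to 11.5% in the 6 others. Its adjusted p was 0.285 in WT and 0.746 in KO in edgeR, so the change of *Trbv1* was not called in either genotype; without WT FoxP3+CD25+ replicate 2 it was -0.55 in WT with an adjusted p of 0.0444. In CPM, 4 of 71 V genes did not overlap (*Trbv12-1* higher, and *Trav14d-3-dv8*, *Trav14n-3* and *Trav9-2* lower), beside 14.6% of all genes tested (7.94% higher and 6.62% lower).

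KO FoxP3+CD25- cells express *Foxp3* without CD25, and the question was which of the other KO populations their V genes resemble. Against KO FoxP3-CD25- cells 0 of 71 V genes passed, beside 1.67% of all genes, with 1 V gene at an unadjusted p under 0.05 in edgeR (1.41%, beside 9.996% of all genes) and 0 called by DESeq2. The 3 V genes of lowest p were *Trav7n-4* (-1.66, SE 0.57, adjusted p = 0.259), *Trav8n-2* and *Trav10*, and the median change of all tested V genes was -0.01. *Trbv12-1* was at 12 and 9.63 CPM in KO FoxP3+CD25- cells and 9.76 and 9.49 in KO FoxP3-CD25- cells, and the 95% intervals of its shares overlapped. Against KO FoxP3+CD25+ cells 1 V gene passed, beside 7.01% of all genes (2.25% higher and 4.76% lower): *Trbv12-1* fell by 1.32 (SE 0.21, adjusted p = 0.00303, edgeR). Without KO FoxP3+CD25- replicate 2 its adjusted p was 0.0519 in edgeR, and the change was -1.16. With the mouse as a block 3 V genes passed, with *Trav14d-3-dv8* (1) and *Trbv3* (-0.54) in addition. The sides of this comparison share their KO FoxP3+CD25- libraries with the one before. *Trbv3* had shares of 11.2% and 10.1%, *Trbv1* of 9.78% and 11.5% and *Trbv31* of 6.79% and 6.43% in KO FoxP3+CD25- cells; these genes were named above for not overlapping between FoxP3+CD25+ and all other libraries, these included.

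Between libraries labelled KO and WT, no V gene passed in either population. In FoxP3+CD25+ cells it was 0 of 71, beside 0.00725% of all genes, and in FoxP3-CD25- cells 0 of 71, beside 0.145%, and DESeq2 called 0 in each. At an unadjusted p under 0.05 there were 5 V genes in the first comparison (7.04%, beside 4.29% of all genes), all higher in KO: *Trav10*, *Trbv12-1*, *Trbv1*, *Trav2* and *Trbv23*. The median log2 fold change there was 0.31 for Trav and 0.27 for Trbv, compared with -0.0031 for all genes. All Trbv counts together were 447 and 634 CPM in WT Treg replicates 1 and 2, and 644 and 681 in KO Tregs. WT replicate 1 was thus the low library for Trbv, with WT replicate 2 close to KO. For Trav the totals were 114 and 126 CPM in WT Tregs and 147 and 141 in KO Tregs. In the second there were 3 (4.23%, beside 8.02% of all genes), all higher in KO: *Trbv3*, *Trav7n-4* and *Trav3-1*. *Trbv12-1* had a KO to WT log2 fold change of 0.47 (SE 0.19) in Tregs and of 0.42 (SE 0.23) in non-Tregs, with adjusted p of 1 and 0.714 in edgeR. *Trbv3* in FoxP3-CD25- cells had the lowest p, with a change of 0.59 (SE 0.18, adjusted p = 0.343) and shares of 12% and 10.3% in KO and 6.75% and 9.56% in WT, where WT replicate 1 was the lowest library. That mouse was also the only one whose libraries carried *Xist*.

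The V genes of unconventional T cells were read from lists. *Trav11* and *Trav11d* had 0 counts in every library, but neither had a unique 50-base window. Of the 38 functional Trav genes without such a window 34 had no count, so these 0s say nothing of invariant NKT cells. *Trav11n*, with 78.6% unique windows, had 29 counts in all and a share of 0% to 0.518%. The 5 beta-chain genes that pair with the invariant chain (*Trbv1*, *Trbv13-1*, *Trbv13-2*, *Trbv13-3* and *Trbv29*) held 31.5% to 32.9% in the 4 FoxP3+CD25+ libraries and 33.3% to 36.1% in the 6 others. The 5 did not move together. Within a mouse the share in Tregs was 0.787 to 0.829 times that in non-Tregs for *Trbv1*, but 1.08 to 1.16 times for *Trbv13-3*. It was 0.653 to 1.01 times for *Trbv13-1*, 0.773 to 1.01 for *Trbv13-2* and 0.822 to 2.14 for *Trbv29*. In edgeR 0 of the 5 were called in any comparison, beside 0% to 10.9% of all genes. *Zbtb16*, the transcription factor of innate-like T cells, was at 1.31 and 2.71 CPM in KO FoxP3-CD25- cells and at most 0.242 CPM in the 8 other libraries. Against these cells it was called lower in KO Tregs (-4.58, adjusted p = 0.0158, edgeR) and in KO FoxP3+CD25- cells. Of the other markers on that list, *Klrb1c* was at 1.97 and 4.06 CPM in KO FoxP3-CD25- cells and at most 1.56 elsewhere. *Cxcr6* was at 15.4 and 17.7 CPM there, but also at 17.6 in WT Treg replicate 1, with 2.33 to 13.1 in the remaining libraries. *Fcer1g* was at most 0.541 CPM. The part of cells with these markers in the shares was not tested. *Trav1* of MAIT cells, with only unique windows, had shares of 0.725% to 2.71% (median 1.32%) and groups that overlapped. The gamma-delta marker *Trdc* was at 7.67 to 12.2 CPM in the WT and 10.9 to 22.5 in the KO libraries. *Sox13*, on the same list, was at 0 to 0.235 CPM in WT and 0.401 to 2.37 in KO libraries. Neither was called between KO and WT in Tregs or non-Tregs in edgeR, beside 0.00725% and 0.145% of all genes. *Trgc1*, *Trgc2* and *Trgc4* were not among the counted symbols.

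Beta-chain genes removed by viral superantigens in strains with the class II molecule I-E, which C57BL/6 mice lack, formed another list. *Trbv12-1*, *Trbv12-2*, *Trbv15* and *Trbv16* were all counted, and together held 20.9% to 24.5% in the FoxP3+CD25+ libraries and 18.4% to 21.5% in the 6 others. Only *Trbv12-1* of the 4 was called in any comparison, beside 0% to 10.9% of all genes. *Trbv15* had a change of 0.09 (SE 0.26) in WT and 0.29 (SE 0.26) in KO. *Trbv16* had changes of -0.02 (SE 0.15) and 0.0049 (SE 0.16), the last at -0.14 with the locus total as library size. The other segments of the loci were not called in any of the 7 comparisons in edgeR, neither the 43 tested Traj nor the 14 Trbj genes. Of all genes 0% to 10.9% were called in these comparisons. Of 6 Trdv genes 2 were tested. Of the 8 genes of the receptor chains and CD3 complex 7 were tested. In WT Tregs 2 fell (*Trac* and *Cd247*, the zeta chain, at -0.49 with adjusted p = 0.0155 in edgeR), while 0 rose. Of all genes 3.75% were lower and 7.15% higher there. In KO Tregs 0 of 7 were called, beside 6.34% of all genes. Of the recombination genes *Rag1* and *Rag2* were at or under 0.352 CPM in all libraries, and *Dntt*, which adds bases at the joints, fell by 2.70 in WT Tregs (SE 0.59, adjusted p = 0.0128, edgeR) from 4.51 and 5.19 CPM to 1.13 and 0.352. In KO, *Dntt* was at 0.456 and 1.60 CPM in Tregs and 1.97 and 4.46 in non-Tregs. That log2 fold change of -1.62 was not called.

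The whole set of shares was compared by the distance between libraries, the sum of absolute differences in share divided by 2. For Trbv the 5 pairs of replicates of a group lay 5.08% to 7.70% apart (median 6.28%). Pairs of groups within a mouse lay 4.87% to 14.8% apart (median 9.06%, 8 pairs). The same population in the other genotype lay 4.73% to 9.82% apart (median 7.12%, 8 pairs). The pairs within a mouse differed by kind. Tregs lay 14.8% and 10.9% from non-Tregs in WT mice 1 and 2, and 8.53% and 11.1% in KO mice 1 and 2. The FoxP3+CD25- cells lay 4.93% and 4.87% from non-Tregs of the same KO mouse, but 7.75% and 9.58% from its Tregs. They were thus nearer to non-Tregs in both KO mice, though this order was not tested. For Trav the medians of the 3 kinds of pair, in the order first given, were 15.1%, 15.8% and 14.4%. All Trav pairs lay 11.2% to 22.5% apart. Differences between groups in the alpha-chain shares were thus of the size of those between replicates. The libraries held 903 to 2234 Trav counts, and the part of counting error in these distances was not tested.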

How the data were processed

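RNA-seq counts of 10 spleen CD4+ T-cell libraries were analysed, 2 in each of 5 sorted groups, grouped by title. Per the labels, the authors aligned 50-base reads with HISAT2 2.1.0 to mm10/GRCm38 and deposited whole-number counts per gene from HTSeq 0.11.1; reads aligned to several places or to overlapping genes were not counted, and whether strand was used is not given in the sources used here. The methods name edgeR.

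Genes were filtered with filterByExpr (minimum count 10), scaled by TMM and tested in edgeR 4.0.16 (R 4.3.3; quasi-likelihood, two-sided, 1 model of 10 libraries and 5 group means, 5 residual degrees of freedom), with Benjamini-Hochberg adjustment over 13796 genes and a threshold of 0.05; 71 of 163 V symbols passed the filter. The labels do not state that libraries of a group are separate mice beyond the numbered titles; p-values measure the spread between them. Same-numbered libraries of a genotype were read as 1 mouse; their deviations from group means correlated at 0.30 (WT) and 0.42 to 0.44 (KO) over all tested genes. Alternatives were no filter, RLE size factors, the locus total as library size, DESeq2 1.42.0, a replicate block, leaving out each library, and, chosen after seeing the data, leaving out both libraries of WT replicate 1. Depth was 6094952 to 12410064 reads on genes, and shares have 95% Wilson intervals. All 163 symbols matched GENCODE M21, from which sequences and 50-base windows were taken.

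Named genes were the 8 largest mean shares of each locus, V genes called in any comparison, the 3 of lowest p in each and preset lists; *Trav13n-3*, *Trav14n-1*, *Trav7n-6*, *Trav9n-3*, *Trbv30*, *Trbv4*, *Trav10d*, *Trav11n* and *Trav2* were named after their values were seen. The members and lists were chosen with earlier results of these data known. Scripts were tested on simulated data. A marker gene is not reported here.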

Additional observations from a re-analysis of the deposited data

How the results depend on the processing

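*Trbv12-1* passed in edgeR or DESeq2 under all 16 alternatives in Tregs against non-Tregs, with log2 fold changes of 1.24 to 1.81 in WT (adjusted p 2.39e-05 to 0.0183) and 1.33 to 1.55 in KO (2.77e-05 to 0.025). The number of V genes called in WT, 5 by the main test, was 6 without a filter, 5 with RLE size factors, 3 with the locus total as library size, 2 by DESeq2, 8 with the replicate block, 2 without both libraries of WT replicate 1 and 1 to 7 when each library was left out. In KO Tregs against non-Tregs it was 2 by the main test, 1 without a filter, with the locus total, by DESeq2 and without WT replicate 1, and 1 to 2 when each library was left out. In KO FoxP3+CD25- against KO FoxP3+CD25+ cells it was 1 by the main test, 3 with the replicate block and 0 to 1 when each library was left out, 0 without KO FoxP3+CD25- replicate 2. In the 4 other comparisons it stayed at 0 under every alternative run. The cause of these differences was not tested. The replicate block changed no other count of calls by over 1.5 times; over the 71 V genes alone the deviations of same-numbered libraries correlated at -0.24 (WT) and 0.016 to 0.18 (KO).

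No called log2 fold change reversed its sign, but some printed changes that were not called did. With the locus total as library size, *Trbv16* in KO Tregs against non-Tregs was at -0.14 and the KO minus WT difference of *Trbv12-1* at -0.11. Without both libraries of WT replicate 1, *Trbv1* and *Trbv16* in WT were at 0.047 and 0.23 and the *Trbv12-1* difference at -0.33. When each library was left out, the WT changes ran from -0.49 to 0.51 for *Trbv15* and from -0.28 to 0.21 for *Trbv16*, the KO change of *Trbv16* from -0.045 to 0.053, and the *Trbv12-1* difference from -0.17 to 0.23. *Trbv31* in WT ran from -1.04 to -0.14 over the 16 alternatives and was called in 4. In WT, *Trav14d-3-dv8* lost its call under 13, *Trav9-2* under 7 and *Trav14n-3* under 6 of 16 alternatives, each with the locus total, and *Trbv3* under 1; *Trav9-2* in KO lost it under 12. Depth was lower for the alpha chain, with 903 to 2234 counts a library, than for the beta chain, with 3559 to 7130. The part of depth in these differences was not tested.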
